A study of Mus musculus with 3 samples.

Results

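Mouse CD4 T cells grown with transforming growth factor beta 1 (TGF-beta 1) in the medium, as Th9 and as induced regulatory T (iTreg) cultures, were set against Th2 cells grown with none added. For each gene the log2 ratio of polarised cells (Cy5) to naive cells (Cy3) on the Th2 array was subtracted from that on the Th9 array, from that on the iTreg array and from the mean of both, here called the pooled difference. Of 10347 genes well above background in both channels of all 3 arrays, 5833 (56.4%) had Th9 and iTreg on the same side of Th2, with 2741 (26.5%) above it and 3092 (29.9%) below it. Of these, 79 genes were at least 2-fold higher in both cultures and 75 were at least 2-fold lower in both. These 154 genes are described below, with the 10193 others as their background. The rule fixes their direction and their size of at least 2-fold, so neither is a finding.

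The Th9 culture held human recombinant TGF-beta 1 at 2 ng/ml, mouse IL-4 at 1 ng/ml, mouse IL-2 at 0.2 ng/ml and, at 5 µg/ml, an antibody to interferon gamma. The iTreg culture held TGF-beta 1 at 5 ng/ml, an antibody against IL-4 at 5 µg/ml in place of IL-4, IL-2 at 0.4 ng/ml and the interferon gamma antibody at 5 µg/ml. The Th2 culture held no added TGF-beta 1, IL-4 at 5 ng/ml, IL-2 at 1 ng/ml and the interferon gamma antibody at 2 µg/ml. All 3 cultures began from naive CD4 T cells, taken by magnetic sorting from the spleens of 6 to 8 week old C57BL/6 mice, and were stimulated for 3 days through CD3e and CD28 (10 µg/ml of each antibody). The naive cells on every array carried Cy3, with no dye swap. Across Th2, Th9 and iTreg the TGF-beta 1 dose went up while the IL-4 dose went down and was then blocked, and IL-2 and the interferon gamma antibody differed as well. A difference that goes with TGF-beta 1 and one that goes with IL-4 or IL-2 therefore cannot be told apart.

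TGF-beta binds a pair of receptor kinases, the type II receptor Tgfbr2 and the type I receptor Tgfbr1. These phosphorylate Smad2 and Smad3, which join Smad4 and act on target genes in the nucleus. Inhibitors such as Smad7, Skil and Pmepa1 are themselves targets of the pathway and feed back on it. In activated CD4 T cells TGF-beta is known to induce the regulatory factor Foxp3, to promote the Th9 fate together with IL-4, and to hold back cytotoxic and type 1 genes.

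The promoter windows of 3 genes that mark TGF-beta cultures are printed because the values below turn on these genes. Each window runs from 250 bases before to 50 bases after the gene's start in RefSeq (GRCm38.p6, plus strand), and capitals mark a SMAD box, CAGACA on either strand. The windows lie at chr9:88327359-88327658 for Nt5e, chr17:8235793-8236092 for Ccr6 and chr4:47352972-47353271 for Tgfbr1.
Nt5e: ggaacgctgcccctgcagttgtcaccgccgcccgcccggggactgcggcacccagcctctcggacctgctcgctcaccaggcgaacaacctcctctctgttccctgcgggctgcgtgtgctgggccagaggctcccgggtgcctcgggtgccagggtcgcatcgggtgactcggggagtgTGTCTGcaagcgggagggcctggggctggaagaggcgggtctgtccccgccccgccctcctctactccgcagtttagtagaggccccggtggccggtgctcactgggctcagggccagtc
Ccr6: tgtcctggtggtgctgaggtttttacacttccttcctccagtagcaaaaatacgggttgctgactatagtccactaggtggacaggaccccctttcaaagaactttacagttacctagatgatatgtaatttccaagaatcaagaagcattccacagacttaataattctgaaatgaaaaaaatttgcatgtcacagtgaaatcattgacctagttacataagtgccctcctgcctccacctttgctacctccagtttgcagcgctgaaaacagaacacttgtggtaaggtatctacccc
Tgfbr1: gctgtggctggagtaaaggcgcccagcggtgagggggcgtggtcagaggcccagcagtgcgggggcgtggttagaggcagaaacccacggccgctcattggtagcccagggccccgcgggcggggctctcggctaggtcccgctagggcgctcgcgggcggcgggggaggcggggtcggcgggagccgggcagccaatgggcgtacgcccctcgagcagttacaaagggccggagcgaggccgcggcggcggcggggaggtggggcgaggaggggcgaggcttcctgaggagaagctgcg
The Nt5e window holds 1 such box, and the Ccr6 and Tgfbr1 windows hold none. Windows were at hand for 64 of the 79 higher genes, 66 of the 75 lower genes and 8365 of all measured genes. The SMAD box was present in 10.9% of the windows of higher genes and 15.2% of those of lower genes, against 15.5% over all measured genes. The 8-base palindrome GTCTAGAC was in no window of either direction and in 0.239% of all. The AP-1 motif TGANTCA was in 7.81% of higher (5 windows) and 9.09% of lower genes (6 windows), against 4.42% of all measured genes. Over all genes with a window, measured or not, it was in 7.92%. For every other motif here, the share of all is that of the measured genes. The STAT6 motif, TTC and GAA spaced by 4 bases, was in 4.69% of higher and 9.09% of lower genes, against 5.31% of all, and the STAT5 motif TTCNNNGAA was in 9.38% and 6.06%, against 7.04%. Both strands were searched, and a match is a description of the letters in the window.

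The 4 genes chosen to mark TGF-beta cultures were higher in both. Ccr6, the receptor for the chemokine CCL20, stood at log2 1.64 in Th9 and 4.78 in iTreg against -2.11 in Th2, each relative to naive cells. Nt5e (CD73), which makes adenosine from AMP, stood at 2.50 and 3.24 against -1.22. Both genes were above naive cells with TGF-beta 1 and below them in Th2. Skil (SnoN), a repressor that binds SMAD proteins, had 1.49 in Th9 and 1.90 in iTreg against -0.16 in Th2, and the receptor Tgfbr1 had 1.44 and 1.17 against -0.03. The pooled differences were 5.32 ± 0.47 for Ccr6, 4.09 ± 0.34 for Nt5e, 1.86 ± 0.28 for Skil and 1.33 ± 0.27 for Tgfbr1. Here ± is the scanner software's spot error carried through the 3 arrays (n = 1 array per culture). A second probe gave pooled differences of 1.26 for Skil and 0.70 for Tgfbr1, so the direction was the same and the size of the Tgfbr1 difference fell short of 2-fold there.

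Each culture rests on 1 array, so there is no spread between replicates and no test or p-value is given, and the 3 arrays lay on a single slide, where culture and position cannot be told apart. Of 43020 gene spots per array, 48.9% (Th9), 51.0% (iTreg) and 50.5% (Th2) were well above background in the culture channel, and no spot was saturated. The median scanner error of such spots was 0.217 to 0.225 log2 units. All 5 measured CD4 T cell markers were above background in every culture, and 5 of 6 B cell markers were at background in all 3. Among the 7 NK and CD8 T cell markers, Ncr1, Klrb1c, Klrk1 and Cd8a were at background in every culture, and of 6 myeloid markers Lyz2 and Cd14 were. The summed signal of the myeloid markers was 8537 in Th9 and 18098 in iTreg, against 8960 in Th2, and that of the CD4 T cell markers was 123389 and 203343, against 129413. The part of these sums in the larger differences of iTreg was not tested. In RNA from a whole culture, fewer cells of a type and less RNA per cell cannot be told apart.

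The 2 differences share the Th2 array, so a high or low Th2 spot moves both the same way. Genes at least 2-fold higher in both cultures made up 0.764% of all measured genes, and those lower in both made up 0.725%. Taken alone, Th9 had 133 genes at least 2-fold higher than Th2 (1.29%) and 134 lower (1.3%), and iTreg had 715 higher (6.91%) and 701 lower (6.77%). The same limits applied to the naive channels of the 3 arrays, in place of the cultures, gave 0 higher and 0 lower genes. The naive channels hold no variation between cultures, and the labels do not say whether they came from 1 RNA extract. These counts are therefore no error rate for the genes described here. Over all measured genes the median size of the difference from Th2 was 0.15 log2 units in Th9 and 0.38 in iTreg, and the median pooled difference was -0.01. Among the 79 higher genes the pooled difference ran from 1.03 to 5.32 with a median of 1.86, and it was more than 2 scanner errors from 0 in 78, the exception being Adssl1 (1.11 ± 0.57). Among the 75 lower genes it ran from -3.58 to -1.03 with a median of -1.55, and it was more than 2 errors from 0 in all 75. The median error was 0.32 log2 units for higher and 0.34 for lower genes. The counts past 2 errors thus follow largely from the 2-fold rule, and the scanner error holds no variation between cultures. With each array centred on its median in place of loess, 47 genes were higher and 165 lower in both. All 47 of these were among the 79, and all 75 lower genes were among the 165. That centring moved the median pooled difference of all genes to -0.42.

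**Figure D1:**
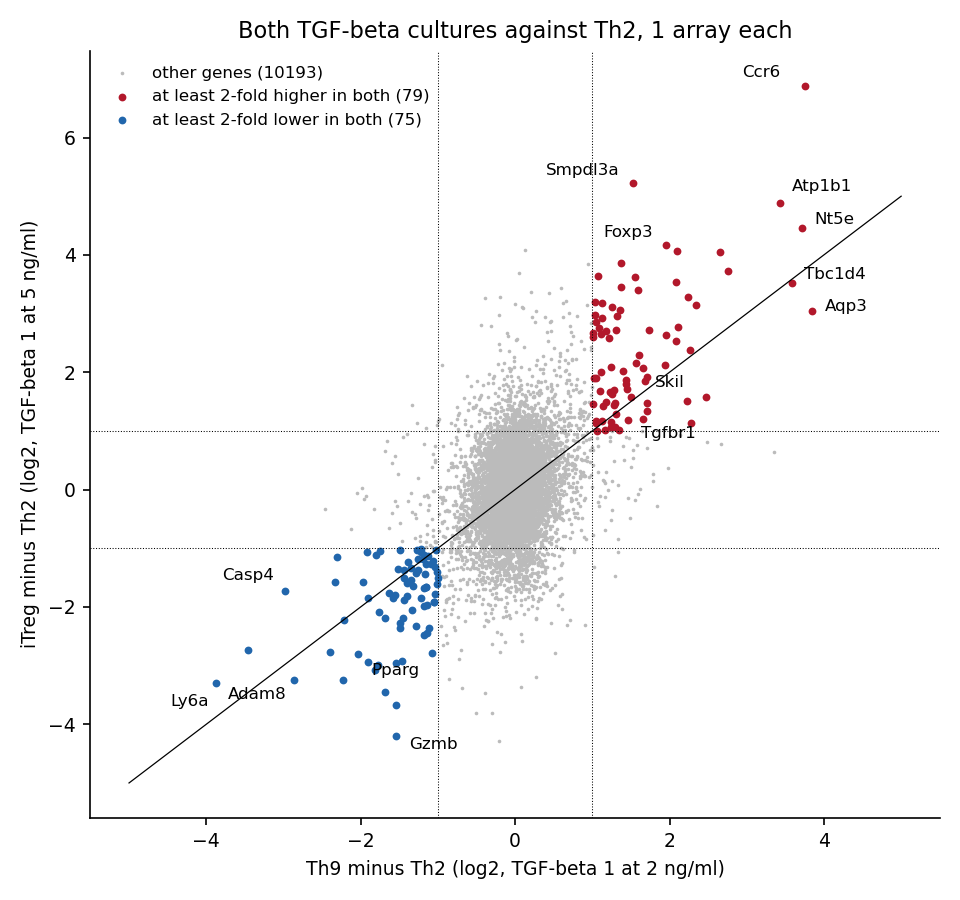
Each point is a gene, with Th9 minus Th2 (log2) on the horizontal axis and iTreg minus Th2 (log2) on the vertical axis. Red points are the 79 genes at least 2-fold higher in both cultures, blue points the 75 at least 2-fold lower, grey points the 10193 others, dotted lines the 2-fold limits and the diagonal equal differences. Ccr6 lies farthest to the upper right, and Ly6a, Ly6c1 and Adam8 have the lowest pooled differences; 63 of the red points lie above the diagonal.

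The limits of the selection pass through a continuous range. Just inside it lay Ubash3b (1.00 in Th9 and 2.67 in iTreg, relative to Th2) and Adgrg1 (1.06 and 1.00) among higher genes, and Mapre2 (at the limit in Th9 and -1.51 in iTreg) and Otub2 (-1.01 and -1.41) among lower ones. Just outside it lay Rasgef1a (1.00 and 1.75) and Epb41l2 (1.18 and 1.00), and on the lower side Tm6sf1 (-0.98 and -1.46) and Oas3 (-1.15 and -0.98). Of the higher genes 15 had 17 other measured probes, 16 of which put both cultures on the same side of Th2 as the probe used and 5 of which passed 2-fold in both. Those of Pdlim5 (0.10) and Pgm2l1 (0.45) differed by more than 2-fold from the probe used. Of the 11 other probes of lower genes, 10 lay on the same side and 6 passed 2-fold in both, and that of Ly6c1 (0.03, against -3.10) differed by more than 2-fold.

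Within the TGF-beta pathway itself, both cultures were at least 2-fold above Th2 for 3 of 31 measured genes and below it for 0. The 3 were Skil, Tgfbr1 and Bmpr2. Bmpr2, the type II receptor for bone morphogenetic proteins, stood at log2 2.13 in Th9 and 2.21 in iTreg, against 1.08 in Th2, so all 3 cultures were above naive cells. In all, 15 genes of the list lay above Th2 in both cultures, by any size, and 3 lay below it in both. With each array centred on its median, 7 lay above Th2 in both and 13 below it, and Skil alone stayed 2-fold higher in both, with Tgfbr1 at 0.62 in iTreg and Bmpr2 at 0.91 in Th9 and 0.76 in iTreg. The median pooled difference of the list was 0.15 under loess and -0.19 with median centring, against -0.01 and -0.42 over all genes.

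The ligands did not move together. Tgfb1 was 0.61 above Th2 in Th9 and 0.57 above it in iTreg, while Tgfb3 was -0.47 and -1.82. Furin, the protease that cuts the TGF-beta precursor, had 0.61 and 0.12. Of the proteins that hold latent TGF-beta, Ltbp3 had -0.55 and -1.56, and Lrrc32 (GARP), which docks it on regulatory T cells, had 0.13 and 0.76. Among receptors, the type II receptor Tgfbr2 was 0.21 above Th2 in Th9 and 1.78 above it in iTreg. Its levels relative to naive cells were -2.57 in Th9, -0.99 in iTreg and -2.77 in Th2, so it lay below naive cells in every culture. Acvr1, a type I receptor of the activin and BMP group, went the other way by size, with 1.17 in Th9 and 0.29 in iTreg. Acvr2b, a type II activin receptor, was close to Th2 in Th9 (0.08) and -2.47 in iTreg.

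The signal-carrying SMAD genes lay near Th2 under loess. Smad2 had 0.46 in Th9 and -0.05 in iTreg, Smad4 had 0.22 and 0.08, and Smad3 had -0.43 and -0.51. Inhibitors of the pathway varied. Smad7, Pmepa1 and Tgif1 lay above Th2 in both cultures and farther above it in iTreg. Smad7, which blocks the type I receptor, had 0.69 and 1.65, Pmepa1, which sequesters SMAD proteins, had 0.47 and 1.80, and Tgif1, a SMAD corepressor, had 0.41 and 1.23. With median centring these 3 also lay above Th2 in both cultures, while Tgfb1 (0.43 in Th9 and -0.07 in iTreg) and Furin (0.42 and -0.52) fell below it in iTreg. The ubiquitin ligases Smurf1 (0.38 and -0.20) and Smurf2 (0.29 and -0.10), which mark receptors and SMAD proteins for breakdown, lay on either side of Th2. Skil was farther above Th2 in iTreg by the probe used but farther in Th9 by its second probe (1.44 in Th9 and 1.09 in iTreg). The coreceptor Tgfbr3 had 0.25 and -1.07. The other 11 measured genes of the list, Eng, Smad1, Smad5, Ski, Tgif2, Ltbp4, Trim33, Fkbp1a, Usp15, Lemd3 and Ppm1a, lay less than 2-fold from Th2 in both cultures, the farthest being Ppm1a at 0.57 in iTreg. For Ldlrad4, a relative of Pmepa1, the Th2 channel was at background. Averaged over the TGF-beta cultures on the log2 scale, its signal was at least 5.80-fold higher, by 2.17 log2 units in Th9 and 2.90 in iTreg over the background bound. Smad6, with Th2 also at background, was above that bound by 0.81 in Th9 and 0.50 in iTreg. The background filter largely sets the direction of both genes, and both were named after their values were seen.

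**Figure D2:**
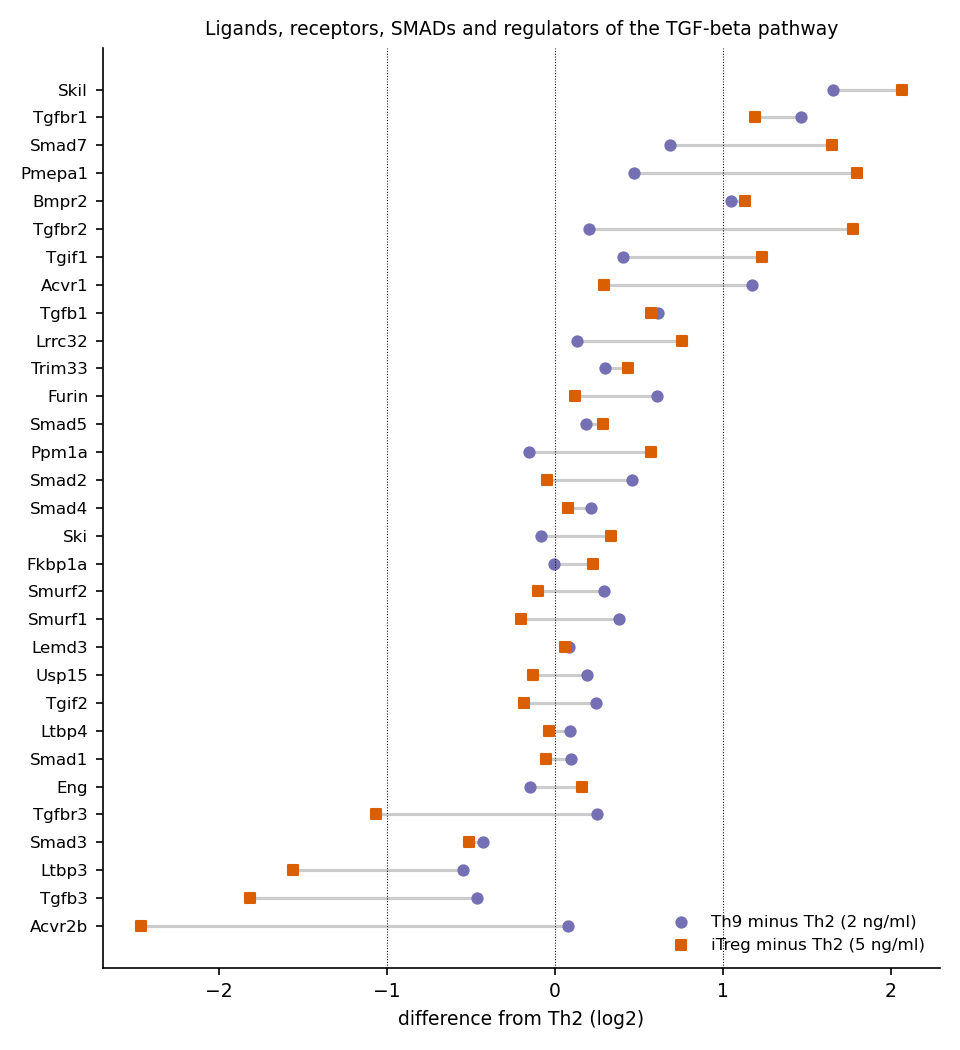
The 31 measured genes of the TGF-beta pathway run down the page by pooled difference, and the horizontal axis gives the difference from Th2 in log2 units for Th9 (circles) and iTreg (squares), 1 array each. Skil, Tgfbr1 and Bmpr2 have both symbols past the dotted line at 1; Tgfbr2, Pmepa1, Smad7 and Tgif1 have the iTreg symbol alone past it.

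Of 26 measured genes known to respond to TGF-beta in T cells or other cells, 3 were at least 2-fold higher in both cultures (Nt5e, Ccr6 and Foxp3) and 1 was lower (Id2). Foxp3, which sets the regulatory T cell programme, stood at log2 1.28 in Th9 and 3.49 in iTreg, against -0.68 in Th2. It was thus above naive cells in both TGF-beta cultures, the Th9 culture included, with differences from Th2 of 1.96 and 4.16. Id2, an inhibitor of E proteins, stood at -0.97 and -2.27, against 0.21 in Th2. Its relative Id3 had differences of -1.08 in Th9 and -0.50 in iTreg, and Id1 had 0.90 and -2.31.

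By any size, 11 genes of this list lay above Th2 in both cultures and 8 below it, and the iTreg difference passed 2-fold upward in 6 and downward in 6. Some passed 2-fold in a single culture while lying above Th2 in both. Sgk1, a kinase that regulates sodium transport, was 3.36 above Th2 in Th9 and 0.64 above it in iTreg. Ahr, the aryl hydrocarbon receptor, had 2.67 and 0.77, and the phosphatase Dusp4 had 1.48 and 0.88. These 3 were larger at the lower TGF-beta 1 dose. Rgs16, which shortens G protein signals, had 0.98 in Th9 and 2.83 in iTreg, and the transcription factor Sox4 had 0.42 and 2.69. Others passed it under loess in iTreg alone while lying below Th2 in both, namely the transcription factors Runx3 (-0.31 and -1.41) and Bhlhe40 (-0.12 and -1.10) and the cell cycle inhibitor Cdkn1a (-0.08 and -1.51). With the scanner software's processed signals the iTreg difference was -1.44 for Runx3, but -0.85 for Bhlhe40 and -0.46 for Cdkn1a, short of 2-fold. Cdkn1a was then 0.10 above Th2 in Th9. Cd101, an inhibitory surface protein, had -0.20 and 2.38, and the stress gene Gadd45b had 0.57 and -1.52. The other 10 measured genes, Ski, Itgav, Junb, Klf10, Nedd9, Lgals1, Tnfrsf9, Runx1, Spsb1 and Zeb1, lay less than 2-fold from Th2 in both cultures. The list's median pooled difference was 0.07 under loess and -0.38 with median centring.

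Among genes of the cell surface, Cd38, an enzyme that consumes NAD at the cell surface, had 2.13 in Th9 and 2.94 in iTreg, against -0.21 in Th2. Of 11 measured genes in the fixed list of adenosine and nucleotide enzymes, Cd38 and Nt5e were the 2 at least 2-fold higher in both, and 0 were lower. Enzymes of nucleotide metabolism outside the list went both ways. Ak1 and Upp1 were at least 2-fold lower in both cultures, with pooled differences of -1.88 and -1.47. Adssl1 was at least 2-fold higher in both (1.11). Kit, the receptor for stem cell factor, had 2.83 and 2.93, against 0.55, so the TGF-beta cultures were alike and Th2 was little above naive. Cd7, a surface protein of T and NK cells, had -2.63 and -0.14 ± 0.20, against -4.01, so iTreg was within its scanner error of naive cells. In the TNF families, the death ligand Tnfsf10 (TRAIL) had -0.19 and 0.79, against -1.92, and the receptor Tnfrsf1b (TNFR2) had 0.03 and 1.83, against -1.10. Of 19 measured genes in the fixed list of these families, they were the 2 that were at least 2-fold higher in both, and Tnfsf8 (CD30 ligand) was the 1 lower. Tnfsf15, a ligand of the family outside the list, was also lower in both (-1.43 in Th9 and -1.37 in iTreg, relative to Th2).

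Among transport and metabolic genes, Atp1b1, the beta subunit of the sodium-potassium pump, stood at -0.53 in Th9 and 0.92 in iTreg, against -3.96 in Th2. Aqp3, a channel for water and glycerol, stood at 3.01 and 2.20, against -0.84. The Th2 culture thus lay far below naive cells for the pump subunit and moderately below them for the channel. These were the 2 of 23 measured transport genes at least 2-fold higher in both, and 0 were lower. Tbc1d4 (AS160), which governs the traffic of glucose transporters, had 2.92 and 2.86, against -0.66. Acsbg1, an acyl-CoA synthetase, had 1.65 and 3.61, against -0.44, and Sardh, sarcosine dehydrogenase, had 1.84 and 2.87, against -0.41. Smpdl3a, a relative of acid sphingomyelinase, had -2.59 and 1.11, against -4.12. The muscle enolase Eno3 (2.00 and 2.69, against 0.05) was the 1 of 23 measured glycolysis genes at least 2-fold higher in both, and 0 were lower.

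Apol9b and Apol9a, near-identical apolipoprotein L genes whose probes may share signal, had pooled differences of 3.35 and 2.81. Their naive channels varied more between arrays than those of other genes, with SDs of 0.872 and 0.765 log2 units over the 3 arrays, against a median of 0.0463 for all genes. With the culture channels compared directly, the pooled differences were 4.30 and 3.67. Those signals followed loess and a scaling between arrays by the mean of both channels, so the naive channel was not wholly left out. Ctsw, cathepsin W, a protease of cytotoxic cells, had 0.36 in Th9 and 1.33 in iTreg, against -2.40 in Th2. Endod1, an endonuclease domain protein, had 0.98 and 3.07, against -0.56.

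Transcription factors of the Th17 list were split. Of its 15 measured members, Rora, Ccr6, Maf and Tbc1d4 were at least 2-fold higher in both cultures, and Batf and Il12rb1 were at least 2-fold lower. Rora, a nuclear receptor that promotes the Th17 fate, had 2.75 in Th9 and 2.30 in iTreg, against 1.10 in Th2. Maf had 0.72 and 0.93, against -0.99. Both had similar levels in the TGF-beta cultures. Klf2, a factor of quiescence, had -3.83 and -1.27, against -4.91, and was the 1 of 27 naive-state genes at least 2-fold higher in both, while Satb1 and Ly6c1 were the 2 lower.

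The 3 lowest pooled differences were those of Ly6a, Ly6c1 and Adam8. Ly6a (Sca-1) stood at log2 -4.15 in Th9 and -3.58 in iTreg relative to naive cells, against -0.28 in Th2. Ly6c1 stood at -5.77 and -5.05, against -2.31, by the probe used, while its second probe gave no such difference (-0.08 in Th9 and 0.13 in iTreg, relative to Th2). The Ly6c1 value thus rests on 1 of its 2 probes, and both genes belong to a close family whose probes may share signal. Adam8, a membrane protease, had -0.86 and -1.25, against 1.99, so the cultures fell on opposite sides of naive cells. The pooled differences were -3.58 ± 0.38 for Ly6a, -3.10 ± 0.50 for Ly6c1 and -3.05 ± 0.35 for Adam8.

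Of 11 measured genes of the cytotoxic granule, 3 were at least 2-fold lower in both cultures (Gzma, Gzmb and Srgn) and Ctsw, above, was higher. Gzmb, granzyme B, had 0.82 in Th9 and -1.85 in iTreg, against 2.36 in Th2. Gzma, granzyme A, had -4.35 and -6.48, against -2.80, below naive cells in every culture. Srgn, the proteoglycan that packs granzymes, had -0.81 and -0.42, against 1.16. Perforin (Prf1) had differences of -0.25 and -0.44 from Th2. Cst7 (cystatin F), an inhibitor of granule proteases that was outside the list, had 0.50 and 0.13, against 2.89. Gzma also marks NK and CD8 T cells. The summed signal of that marker list was 3780 in Th9 and 3106 in iTreg, against 10265 in Th2, with 4 of its 7 genes at background in all 3 cultures. Gzma is itself in this sum, so the sum is no separate measure of NK and CD8 T cells. The part of such cells in the result was not tested.

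Genes of the Th2 programme were lower in part. Of 14 measured genes of the Th2 list, Pparg, Ecm1 and Il3 were at least 2-fold lower in both and Maf was higher. Pparg, a nuclear receptor of Th2 cells, had 1.31 in Th9 and 0.55 in iTreg, against 3.34 in Th2. Ecm1, which aids the exit of Th2 cells from lymph nodes, had 0.18 and -0.33, against 1.87. The cytokine Il3 had 1.44 and 0.40, against 3.34. For these genes Th2 was the culture farthest above naive cells. The master factor Gata3 had smaller differences of -0.39 in Th9 and -0.88 in iTreg. The Th2 list had a median pooled difference of -0.64, with medians of -0.25 in Th9 and -0.85 in iTreg. The genes of the IL-4 and STAT6 response had 2 of 15 lower in both (Pparg and Batf), 0 higher and a median of -0.26. That list's medians were -0.04 in Th9 and -0.82 in iTreg.

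Genes known to depend on IL-2 or interferon were also among those lower in both. Of 25 measured genes of the IL-2 and STAT5 response, Socs3, Gzmb and Ifng were lower and 0 were higher, with a median pooled difference of -0.60. The list's median difference was -0.25 in Th9 and -0.95 in iTreg. Socs3, a feedback inhibitor of cytokine receptors, had -0.66 in Th9 and -1.16 in iTreg, against 0.49 in Th2. Ifng had -2.55 and -2.56, against -1.42. The IL-2 dose was lowest in Th9 and highest in Th2, and its part in these differences was not tested. Of 15 measured Th1 genes Ifng, Ccl5 and Gzmb were lower and 0 higher, while the list's median difference was -0.20 in Th9 and 0.47 in iTreg (pooled 0.17) and 4 of its genes were at least 2-fold higher in iTreg alone. Of 19 measured interferon-stimulated genes Isg15 (-2.68 and -2.93, against -1.09), Oasl1 and Ifih1 were lower and 0 higher, with a median of -0.32.

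Btla, a receptor that restrains T cells, and Cd200, a surface glycoprotein, were the 2 of 11 measured follicular helper genes at least 2-fold lower in both. Btla had -1.44 in Th9 and -1.58 in iTreg, against 0.18 in Th2. The inhibitory receptor Tigit had 0.88 and 1.13, against 2.15, although it is listed among regulatory T cell genes, of which it was the 1 lower of 23 measured and Foxp3 and Nt5e the 2 higher. Batf, an AP-1 family factor, had 0.36 and -0.69, against 1.64. Casp4, an inflammatory caspase, had -1.04 and 0.22, against 1.95. Other genes of large difference were Krt18, a keratin (2.69 and 0.92, against 4.37), Kremen2, a receptor for Dickkopf proteins (-0.08 and -1.09, against 2.14), and Akr1b8, an aldo-keto reductase (1.13 and 1.13, against 3.35). Itga3 was the 1 of 20 measured integrin and adhesion genes lower in both, with 0 higher, and the 14 measured genes of actin and matrix had 0 either way. Padi3, Tbkbp1 and Gpm6b had pooled differences of -2.45, -2.38 and -2.25.

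**Figure D3:**
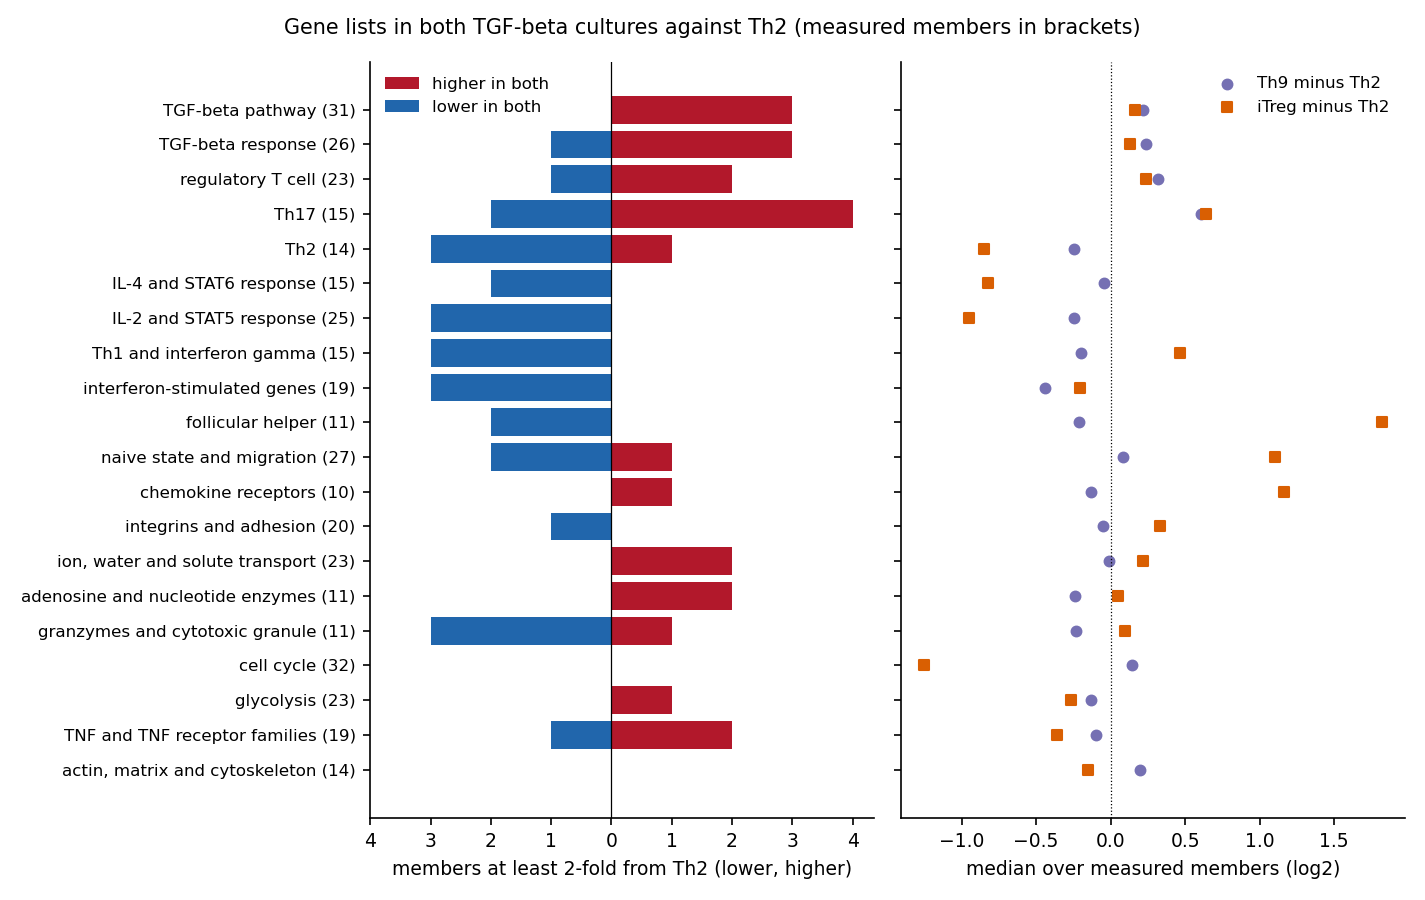
Left, bars give the members of each gene list at least 2-fold higher (right of 0) or lower (left of 0) than Th2 in both TGF-beta cultures, with the number of measured members in brackets. Right, points give the list's median difference from Th2 in log2 units for Th9 (circles) and iTreg (squares); the Th17 list has 4 genes higher and 2 lower, and the cell cycle list has none either way, with medians of 0.14 in Th9 and -1.25 in iTreg.

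The difference from Th2 was larger in iTreg, at 5 ng/ml of TGF-beta 1, than in Th9, at 2 ng/ml, for most genes of both directions. Of the 79 higher genes, iTreg lay farther from Th2 than Th9 did in 63, and of the 75 lower genes in 53. The median distance beyond Th9 was 0.62 log2 units for higher and 0.33 for lower genes. The step between the cultures was larger than its scanner error, in the direction of the dose, for 48 higher and 35 lower genes, and against it for 5 and 7. The matching shares of all measured genes are not given here, so these counts describe the selected genes only. The ratio of the iTreg to the Th9 difference, both on the log2 scale, had a median of 1.35 for higher genes, with quartiles of 1.08 and 2.13, and 1.19 for lower genes, with quartiles of 0.978 and 1.56. The doses differed by a factor of 2.5, and the ratio of differences was at least that in 12 higher and 2 lower genes. Over all measured genes iTreg was also farther from Th2 than Th9 was, as the medians of 0.38 and 0.15 show, and 6.7% of them were at least 2-fold higher in iTreg than in Th9 and 6.33% at least 2-fold lower. With median centring in place of loess, iTreg lay farther from Th2 than Th9 in 46 of the 79 higher and 64 of the 75 lower genes, with median distances of 0.23 and 0.59, so which direction showed the larger step depended on the scaling. With 1 culture per dose and IL-4 falling as TGF-beta 1 went up, no dose response can be fitted.

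By size, iTreg was at least 2-fold beyond Th9 in 28 of the 79 higher genes (35.4%) and in 14 of the 75 lower genes (18.7%). With median centring the same genes gave 24 and 23. The largest steps among the higher genes were those of Smpdl3a (3.69 ± 0.39), Ccr6 (3.13 ± 0.58) and Klf2 (2.56 ± 0.47), and the step of Foxp3 was 2.20 ± 0.47. Among lower genes they were those of Gzmb (-2.67 ± 0.37), Gzma (-2.13 ± 0.81), Krt18 (-1.78 ± 0.50) and Il12rb1 (-1.71 ± 0.39), a chain of the IL-12 and IL-23 receptors.

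A second group had levels within 0.25 log2 units of each other in the TGF-beta cultures, with 18 higher and 24 lower genes. The share of all measured genes within that limit is not given here, so these counts are no trait of the selected genes. Tbc1d4, Kit, Maf and Bmpr2 belonged to this group, as did Phlda1 (a pooled difference of 2.03) and Prickle1, a planar polarity protein (1.58 in Th9 and 1.74 in iTreg, against -0.11 in Th2). On the lower side it held Akr1b8, Btla, Il10ra, the IL-10 receptor chain (-0.53 and -0.72, against 0.87), and Ptger2, a prostaglandin E2 receptor (1.71 and 1.48, against 3.27). The scanner error of the step between these cultures was 0.56 for Kit and, among the genes of this group, as large as 0.75 for Adssl1, so steps of that size would not be resolved.

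The larger difference stood at the lower dose in 16 higher and 22 lower genes. Cldnd1 was the 1 higher gene with iTreg at least 2-fold short of Th9 (2.24 in Th9 and 1.10 in iTreg, against -0.04 in Th2). Casp4 and Sema4f, a semaphorin (-0.99 and 0.18, against 1.32), were the 2 lower ones. Aqp3 (a step of -0.81 ± 0.46) and Tgfbr1 (-0.27 ± 0.34) were also larger in Th9, the second by less than its error.

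**Figure D4:**
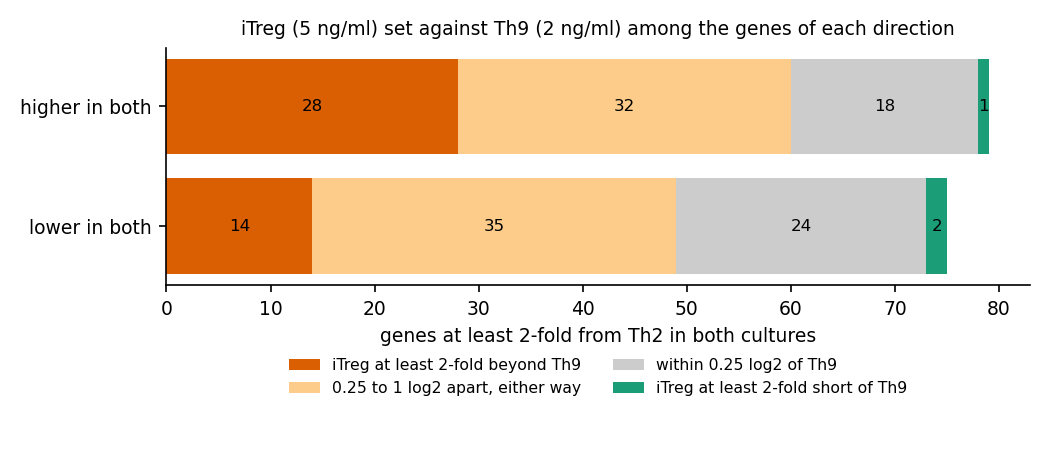
Bars count the 79 higher and 75 lower genes by where iTreg (5 ng/ml TGF-beta 1) lay relative to Th9 (2 ng/ml). iTreg was at least 2-fold beyond Th9 in 28 higher and 14 lower genes, within 0.25 log2 units in 18 and 24, at least 2-fold short of it in 1 and 2, and at distances in between, either way, in 32 and 35.

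**Figure D5:**
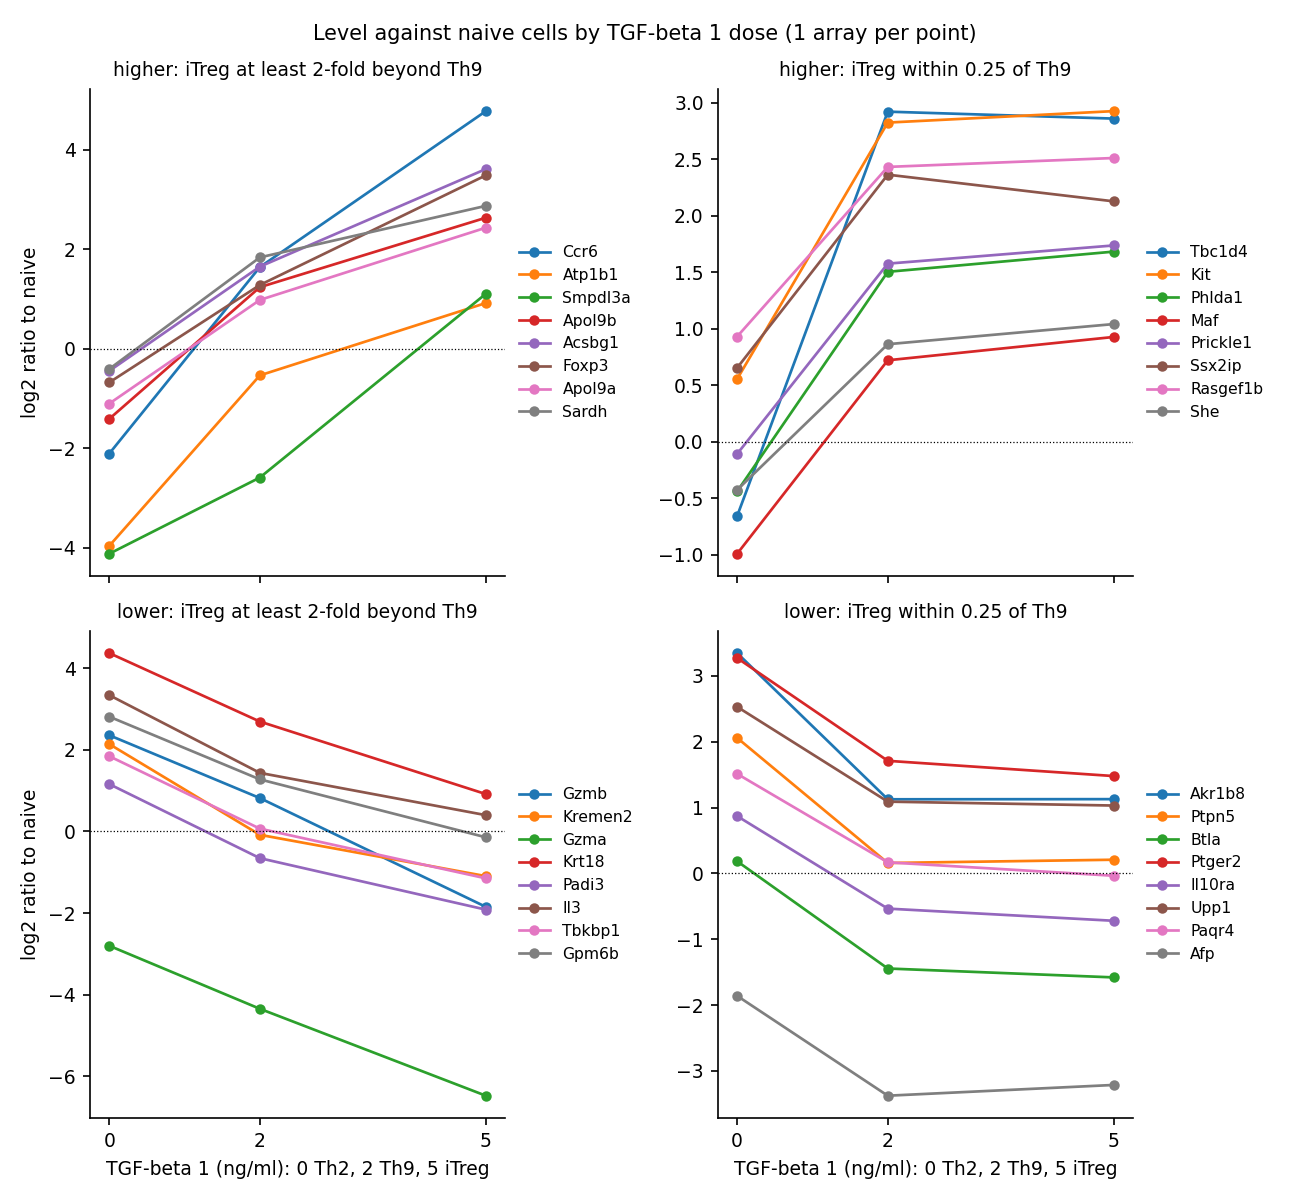
Lines join the log2 ratio to naive cells in Th2, Th9 and iTreg, placed at 0, 2 and 5 ng/ml of TGF-beta 1, with 1 array per point. The left panels show the 8 genes of largest pooled difference with iTreg at least 2-fold beyond Th9, and the right panels the 8 with iTreg within 0.25 log2 units of Th9, for higher (top) and lower (bottom) genes; lines such as that of Ccr6 go on to 5 ng/ml, and lines such as that of Tbc1d4 are level from 2 to 5 ng/ml. IL-4 falls along the same axis.

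Set against naive cells under loess, the counts of the 2 directions differed. No matching shares of all measured genes and no counts under another scaling are given here. The counts thus describe the selected genes only and are no trait of them. Of the 79 higher genes, the mean of the TGF-beta cultures lay farther from naive cells than Th2 did in 48 and nearer in 31. In 41 both cultures were above naive cells with Th2 below them, and in 33 both were at least 2-fold above naive cells. Th2 was at least 2-fold below naive cells in 30, among them Atp1b1, Smpdl3a, Cd7 and Klf2. Of the 75 lower genes, the TGF-beta cultures lay nearer to naive cells in 54 and farther in 21. Th2 was at least 2-fold above naive cells in 53, and in 17 both TGF-beta cultures were at least 2-fold below them, as for Ly6a, Gzma and Isg15. In 34 of the 75, Th2 was at least 2-fold above naive cells while neither TGF-beta culture fell below them, as for Pparg, Il3, Krt18 and Akr1b8. The share with iTreg at least 2-fold beyond Th9 was 33.3% of the 48 farther and 38.7% of the 31 nearer higher genes, and 19% of the 21 farther and 18.5% of the 54 nearer lower genes.

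Some genes fell outside the measured set because a channel was at background. Which culture was at background largely sets the direction of such a gene, so the direction is no finding. Where Th2 was at background and both TGF-beta cultures were above it (142 genes), 18 were at least 2-fold higher in both over the background bound. Averaged over both cultures on the log2 scale, which is no bound for each culture alone, the highest included Krt81, a hair keratin (at least 8.64-fold), Dkk3, a secreted Dickkopf protein (at least 7.62-fold), Rab3a, a secretory GTPase (at least 6.81-fold), and Slco4a1, an organic anion transporter (at least 6.52-fold). Where both TGF-beta cultures were at background and Th2 was above it (405 genes), 48 were at least 2-fold lower in both. By the same average, Il21, a cytokine that helps B cells, was at least 18.6-fold lower, and Lilr4b, an inhibitory receptor, at least 4.38-fold lower. Spata48, Syna and Robo3 followed, at least 3.38-fold, 3.29-fold and 3.21-fold lower.

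A further 405 genes were above background in all 3 cultures but not in every naive channel, and there the culture channels were compared directly. At least 2-fold higher in both were 6 genes, Tff1, Pla1a, Fbxo2, Stab1, Krt87 and Procr, and 16 were lower. These were chosen for naming after their values were seen. Tff1, a trefoil peptide, had log2 signals of 10.49 in Th9 and 10.40 in iTreg, against 7.09 in Th2, and Pla1a, a phospholipase, had 10.08 and 10.15, against 6.92. Both had the same signal at 2 and 5 ng/ml within 0.1 log2 units. Il13, an effector cytokine of Th2 cells, had 7.81 and 7.10, against 11.70, and Il5, another, had 8.30 and 6.75, against 9.35. Serpinf1 had the lowest pooled difference, -5.13, with signals of 9.40 and 7.20, against 13.43.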

How the data were processed

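Total RNA of 3 polarised cultures was measured on 3 Agilent 2-colour arrays, each with naive RNA in Cy3. Median spot and background intensity of each channel were taken from the deposited scanner files. Feature Extraction made them, as version 9.3.2.1 per the submitters' processing notes and as version 11.0.1.1 per the file headers. They also hold, per the file headers, a log10 ratio with its error, from signals that the software had background-subtracted and dye-normalised. The deposited log2 values of the series equal the log2 ratio of those signals plus a constant per array (0.0206 in Th9, 0.0365 in iTreg and 0.0562 in Th2), within 0.001 for 99.7% to 99.8% of 17173 probes above background. Their column medians were 0.259, 0.283 and 0.138, and neither the source of the constant nor any centring is given in the sources used here.

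Intensities were corrected by normexp (offset 50) and log2 ratios loess-normalised array by array with limma 3.58.1 (R 4.3.3, package data.table, version 1.17.8), with outlier spots dropped and spots of a probe averaged. Control spots had no weight in the loess. The rest was done in Python 3.11.15 (pandas 2.3.3 and matplotlib 3.10.9, numpy 2.4.6). Of 39429 probes, 26055 matched by RefSeq accession to 19751 genes of GRCm38.p6, and 13374 did not. The brightest probe stood for each of 5270 genes with several. Where Th2, or both other cultures, were at background, the lowest signal well above background on that array, or the probe's own if higher, gave an "at least" bound.

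With 1 array per culture, genes were classed by size (2-fold in both). A run on simulated data checked only that the code applies this rule. Its noise was the spread of the naive channels, far below the limit, and its set effects lay past the limit. It therefore gives no error rate for the genes described here. A gene-specific dye effect cancels between cultures. Named genes are the 4 markers, the 15 highest and 15 lowest pooled differences, up to 10 per dose class, list members past 2-fold in both with each list's extremes, all TGF-beta pathway and response genes, the 5 highest bounds and the genes at the limits; a few others (among them Ldlrad4, Prf1, Gata3, Adssl1 and the genes compared by Cy5 alone) were named after their values were seen. Members and lists were chosen with earlier results of these data known. Alternatives were the normalisation, starting signal, background correction, filter, probe rule, size limit, naive channel, deposited values and leaving out an array. Not every gene that this rule covers is reported here.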

Additional observations from a re-analysis of the deposited data

Results flagged for a closer look

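In 7 genes Th9 and iTreg lay at least 2-fold to opposite sides of Th2, which is why they stand apart from the genes described above; the difference between the cultures was not tested, since each has 1 array. The differences are iTreg minus Th9 in log2 units with the scanner error. Lower in iTreg and higher in Th9 than in Th2 were Maged1 (-2.77 ± 0.50), Socs2, a feedback inhibitor of cytokine signals that STAT5 induces (-2.39 ± 0.64), and Tnni1, a troponin (-2.35 ± 0.59). Socs2 stood at 4.60 in Th9 and 2.21 in iTreg, against 3.27 in Th2, relative to naive cells. Higher in iTreg and lower in Th9 were Evl, an actin regulator (2.12 ± 0.35), Nmi, an interferon-induced protein (2.21 ± 0.57), Egr2, a factor induced by T cell receptor signals (2.40 ± 0.36), and Trim34a (2.79 ± 0.45). Egr2 stood at -0.28 in Th9 and 2.13 in iTreg, against 0.99 in Th2.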

How the results depend on the processing

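No paired analysis was possible because each culture has a single array. Among the 30 genes of largest pooled difference, Skil and Tgfbr1, no pooled difference changed sign under any alternative run. List medians did so in 23 cases, 8 of the 20 lists under median centring, among them those of the TGF-beta pathway (-0.19) and response (-0.38). Without an array, the count of genes at least 2-fold higher lay between 133 and 715, and of those lower between 134 and 701, since a single culture then sets the rule. Median centring in place of loess gave 47 higher and 165 lower genes, with iTreg at least 2-fold beyond Th9 in 14 higher and 47 lower genes. The software's processed signals gave 123 higher genes, and 25 lower genes with iTreg 2-fold beyond Th9. The deposited values gave 113 lower genes, 26 of them with iTreg 2-fold beyond Th9. Without the filter on dim probes, 118 genes were lower, 26 of them with iTreg 2-fold beyond Th9, and 11971 genes had both cultures on the same side of Th2. The stricter filter left 8 lower genes with iTreg 2-fold beyond Th9, and the direct comparison of Cy5 channels gave 23. At 1.5-fold, 227 genes were higher and 220 lower, and at 4-fold 14 and 7. The cause of these changes was not tested, apart from the number of genes, arrays or the limit that an alternative sets itself. Relative to the median of all genes after median centring, an alternative chosen after seeing the data, 97 genes were higher and 75 lower. Over the alternatives the pooled difference of Skil lay between 1.51 and 2.07, of Tgfbr1 between 0.96 and 1.53, of Nt5e between 3.71 and 4.47 and of Ccr6 between 3.75 and 6.88. Of the values of named genes under the alternatives, 249 moved by less than the scanner error and 95 by more. Of the list medians, 186 moved by less and 34 by more, 19 of them under median centring. Signal near background limits the dim genes, and 1 array per culture limits all values.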

Other observations

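In several lists the TGF-beta cultures parted from each other, so that few members reached 2-fold on the same side of Th2. Of 32 measured cell cycle genes, 22 were at least 2-fold lower in iTreg than in Th2 and 0 were so in Th9, with median differences of -1.25 in iTreg and 0.14 in Th9. Top2a, which untangles DNA before mitosis, was 0.07 from Th2 in Th9 and -1.97 from it in iTreg. Of 11 measured follicular helper genes, 7 were at least 2-fold higher in iTreg and 0 in Th9. They included the chemokine receptor Cxcr5 (-0.38 in Th9 and 3.27 in iTreg), the inhibitory receptor Pdcd1 (-0.20 and 3.28) and the repressor Bcl6 (-0.21 and 2.97). Of 27 measured naive-state genes 15 were at least 2-fold higher in iTreg and 1, Klf2, in Th9. The chemokine receptor Cxcr6 was 0.05 from Th2 in Th9 and 3.70 in iTreg.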
